A study of Mus musculus with 30 samples.

Results

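The genes described here encode the scaffold of the postsynaptic density, the protein layer under an excitatory synapse. They are 9 genes of the 55335 in the count table: Dlg2, Dlg3 and Dlg4, Dlgap1, Shank1, Shank2 and Shank3, and Homer1 and Homer2. They were chosen by name, for the function of their proteins, and were found in the table by Ensembl identifier through GENCODE release M21. All 9 passed the filter on low counts, with 214 counts in the least covered library of Homer2 and 60371 in the most covered library of Dlg4.

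The libraries hold RNA bound to ribosomes in the nucleus accumbens of female mice, whose ribosomes were tagged in 1 class of medium spiny neuron, the main output neuron of the striatum. D1-Cre-RT mice carried the tag in cells that expressed Cre under control of D1 dopamine receptor gene sequences, and A2A-Cre-RT mice in cells with Cre under control of adenosine A2A receptor gene sequences, which mark the neurons that express the D2 receptor. The latter libraries are called D2. Some mice of each genotype went through chronic witness defeat stress, in which a mouse sees another being defeated, and were then grouped by social interaction score into Resilient and Susceptible, beside Control mice that are labelled only as such. The design thus had 6 groups of 5 libraries, D1 and D2 Control, Resilient and Susceptible. All 30 libraries carried the RiboTag allele and a Cre driver, and each pooled 4 mice with similar scores, with tissue taken 24 h after the social interaction test. The age of the mice is not given in the sources used here. Cre lines mark every cell in which the driver is or was active, so the tag is not a sort for medium spiny neurons alone.

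At an excitatory synapse the MAGUK proteins of the Dlg genes hold glutamate receptors and adhesion molecules at the membrane. Dlgap1 (GKAP, SAPAP1) links the MAGUKs to the Shank proteins, the large scaffolds of the deeper layer, and Shank proteins bind Homer, which ties them to group I metabotropic glutamate receptors and to internal calcium stores. Loss of Shank3 in mice is known to impair corticostriatal synapses and to cause repetitive grooming. Homer1 also makes a short, activity-induced form that lacks the coiled coil and uncouples the long forms. Counts per gene cannot tell the short form from the long ones.

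Gene counts per library ran from 28996168 to 65882152. Of the label check genes, Pdyn, Drd2, Adora2a and Penk did not overlap between the 15 D1 and the 15 D2 libraries. Drd1 and Tac1 overlapped through D2 Resilient replicate 5, where the summed level of 5 D1 neuron markers was 1710 CPM (counts scaled to a library total of 1000000), against 251 to 1121 CPM in the other D2 libraries. Some libraries stood apart. D2 Susceptible replicates 1 and 2 had 15822 and 16525 genes detected, against 19440 to 22375 in the other 28. In D1 Susceptible replicate 1 the single feature Gm42418 held 54.9% of gene counts, and in D1 Susceptible replicate 5 it held 5.46%, against at most 2.49% elsewhere. Because these are bulk libraries, fewer cells of a type and less RNA per cell cannot be told apart.

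Promoter sequence is shown for Homer1, Homer2, Shank3 and Dlgap1, because the levels of these genes moved together or against each other from library to library. Each line holds the 250 bases before a start site listed by RefSeq (GRCm38.p6), read 5′ to 3′ on the strand of the gene. Capitals mark matches to TGACG, the core of the cAMP response element, or to GGGCGG, a GC box, on either strand and counted with overlaps. The windows lie at chr13:93303507-93303756 (+) for Homer1, chr7:81706926-81707175 (−) for Homer2, chr15:89499358-89499607 (+) for Shank3 and chr17:69968823-69969072 (+) for Dlgap1.
Homer1: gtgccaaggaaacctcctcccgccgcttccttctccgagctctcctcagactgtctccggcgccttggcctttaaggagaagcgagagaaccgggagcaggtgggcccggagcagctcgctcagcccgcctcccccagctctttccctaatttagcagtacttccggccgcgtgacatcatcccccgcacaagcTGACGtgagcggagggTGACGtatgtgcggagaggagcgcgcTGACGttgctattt
Homer2: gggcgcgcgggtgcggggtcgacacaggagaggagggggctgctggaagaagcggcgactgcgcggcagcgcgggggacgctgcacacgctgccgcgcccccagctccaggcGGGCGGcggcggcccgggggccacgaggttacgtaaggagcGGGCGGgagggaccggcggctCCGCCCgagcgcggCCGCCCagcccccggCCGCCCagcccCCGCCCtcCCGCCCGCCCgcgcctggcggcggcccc
Shank3: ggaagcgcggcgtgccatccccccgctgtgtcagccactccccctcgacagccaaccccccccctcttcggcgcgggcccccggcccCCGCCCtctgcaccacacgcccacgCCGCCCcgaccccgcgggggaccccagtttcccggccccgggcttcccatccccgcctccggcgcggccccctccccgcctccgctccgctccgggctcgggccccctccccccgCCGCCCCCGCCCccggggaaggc
Dlgap1: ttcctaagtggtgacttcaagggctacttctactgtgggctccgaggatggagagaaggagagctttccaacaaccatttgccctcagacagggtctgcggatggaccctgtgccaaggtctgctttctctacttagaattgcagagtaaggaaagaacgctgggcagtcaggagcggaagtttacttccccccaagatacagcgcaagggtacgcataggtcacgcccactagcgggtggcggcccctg
Homer1 held 3 matches to TGACG and none to GGGCGG, Homer2 held 8 and Shank3 held 4 matches to GGGCGG with none to TGACG, and Dlgap1 held neither. Of 32851 promoters of the same length, 17.8% held TGACG and 32.7% held GGGCGG. The Homer2 and Shank3 windows had a GC content of 83.2% and 82.4%, against a median of 52.4% over all promoters. In GENCODE the Shank3 and Dlgap1 windows lie outside genes and the Homer1 window lies in an intron of a longer Homer1 transcript. Of the Homer2 window, 19 bases at the 3′ end lie in an annotated first exon. RefSeq promoters were matched for 7 of the 9 genes.

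Compared per kilobase of exon, Dlg4 and Dlg3, both MAGUK genes, were the most abundant. Dlg4 (PSD-95, the core MAGUK of excitatory synapses) stood at 59.2 ± 4.01 CPM per kilobase in D1 and 60.7 ± 4.93 in D2 (mean ± SD of 15 libraries each). Dlg3 (SAP102) followed at 47.9 ± 2.04 and 46.4 ± 2.39 CPM per kilobase. Dlgap1, Dlg2 (PSD-93) and Homer1 came next, at 20.2 ± 3.60, 20.1 ± 2.21 and 19.9 ± 3.80 CPM per kilobase in D1, and these did not differ from each other beyond their spread. In D2 they stood at 17.0 ± 6.75, 18.6 ± 1.73 and 23.6 ± 9.60 CPM per kilobase. Shank1 was at 11.1 ± 1.68 in D1 and 6.86 ± 1.27 in D2, and Shank3 at 10.7 ± 2.01 and 10.6 ± 3.40 CPM per kilobase, so that these neighbours overlapped in D1. Shank2 was lower, at 4.05 ± 0.961 and 3.49 ± 0.355 CPM per kilobase, and Homer2 was lowest, at 1.74 ± 0.293 and 1.27 ± 0.570. Transcripts differ in the exons they use, so these levels are approximate. The length used covers all annotated exons of a gene. For Dlg3 it was 5844 bases, against 4956 in the longest coding transcript. For Dlgap1, Dlg2 and Homer1 it was 17890, 16280 and 11976 bases, against 7173, 7813 and 5713. The size of the gap between Dlg3 and these 3 genes therefore depends on the length used.

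**Figure D1:**
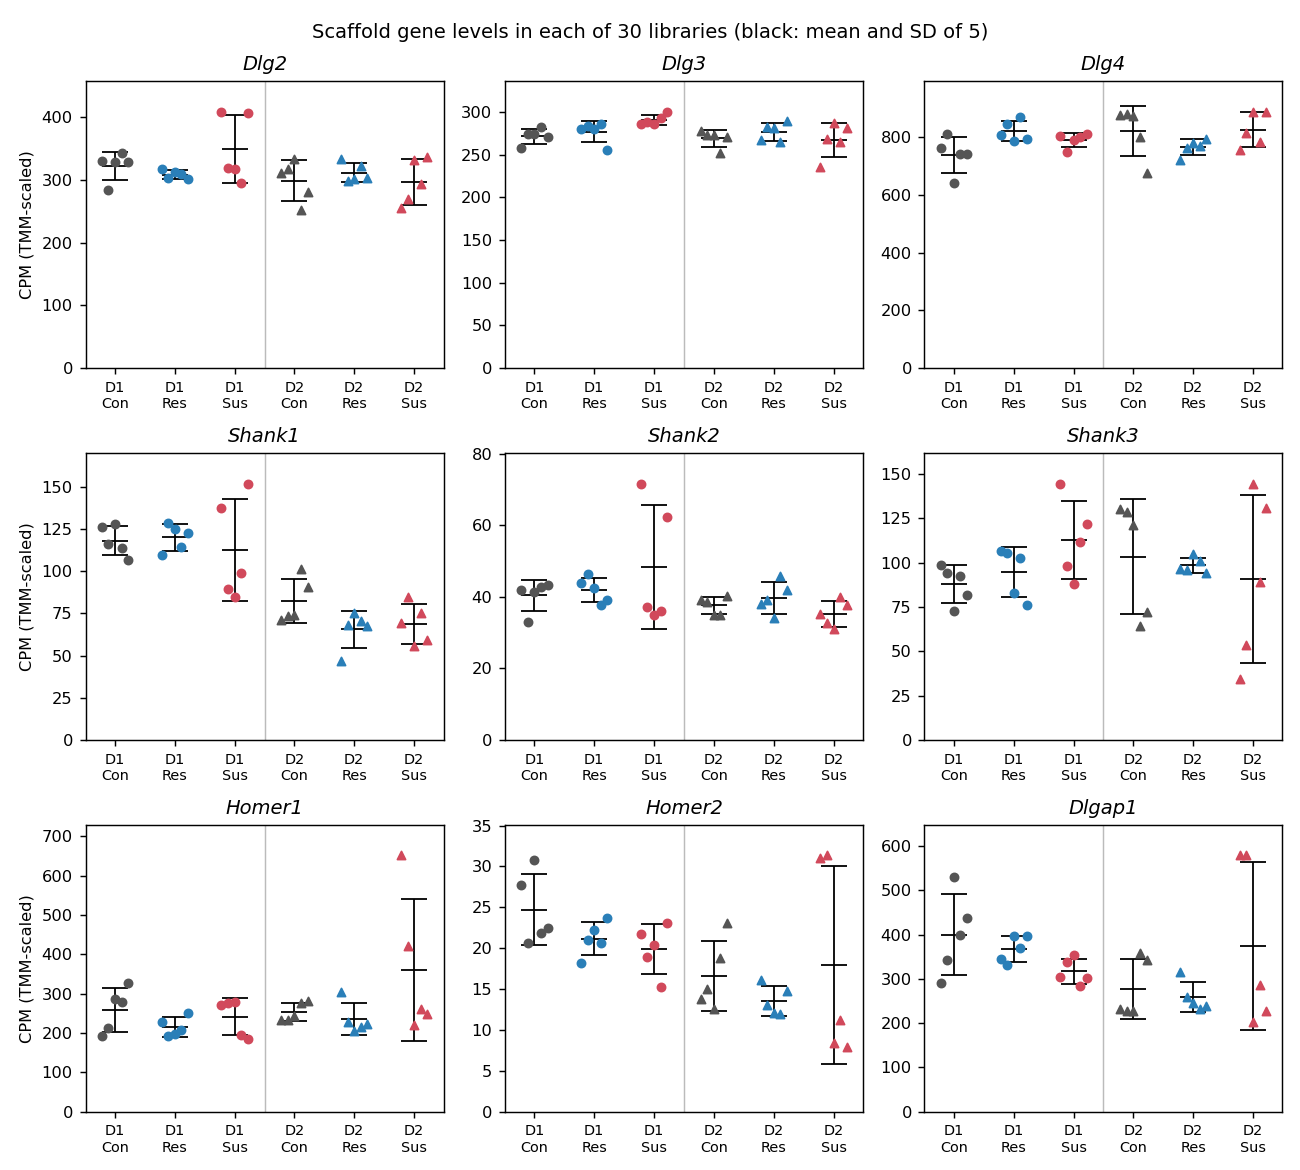
Level of each scaffold gene in each of the 30 libraries. The vertical axis is CPM on TMM-scaled library sizes, starting at 0, circles are D1 and triangles D2 libraries, and black bars are the mean and SD of 5 libraries. Shank1 is the gene whose D1 and D2 libraries separate in Control and Resilient, and D2 Susceptible spreads widely for Shank3, Homer1, Homer2 and Dlgap1.

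The next comparison asked which scaffold genes differed between the neuron classes. Shank1 was higher in D1 in each of the 3 stress groups, by 1.44-fold in Control, 1.83-fold in Resilient and 1.63-fold in Susceptible. Averaged over the stress groups, Homer2 was also higher in D1, by 1.37-fold. In Susceptible libraries alone, Shank2 was higher and Homer1 lower in D1, and both rested on 2 libraries each. Dlg2, Dlg3, Dlg4, Shank3 and Dlgap1 were not called in any of these comparisons. All tests are edgeR's quasi-likelihood test with Benjamini-Hochberg adjustment over 19368 genes at a threshold of 0.05, and the p-values measure the spread between pooled libraries.

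In Control libraries 1 of the 9 genes was called, Shank1, where 8.3% of all genes were called. In Resilient libraries it was again 1 of 9, where 6.65% of all genes were called. In Susceptible libraries 3 of 9 were called, where 23.9% of all genes were called. Over the mean of the stress groups 2 of 9 were called, where 29.3% of all genes were called. With only 9 genes, the counts in all 4 comparisons lie near the background. The median log2 difference of the 9 genes, D1 minus D2, was 0.11, 0.08, 0.15 and 0.11 in these 4 comparisons, and that of all genes was −0.0028, −0.0035, 0.017 and 0.0045.

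Shank1 (ENSMUSG00000038738, chr7:44310253-44360572 in GRCm38, + strand) encodes a Shank protein of the brain that is concentrated in spines. Its 5 D1 Control libraries stood at 126, 116, 128, 114 and 107 CPM, and its D2 Control libraries at 71.2, 73.6, 74.0, 101 and 90.5 CPM. These groups did not overlap, and neither did 11.7% of all genes. The log2 difference was 0.53 (SE 0.143, edgeR adjusted p 0.0171). The Resilient values were 109, 129, 125, 114 and 123 CPM in D1 and 46.7, 68.3, 75.0, 70.3 and 67.4 CPM in D2. Again no library overlapped, as for 9.7% of all genes, and the log2 difference was 0.87 (SE 0.143, edgeR adjusted p 9.70e-05). Susceptible D1 libraries stood at 137, 89.2, 84.4, 99.1 and 152 CPM and their D2 counterparts at 69.0, 84.6, 55.8, 75.5 and 59.0 CPM. Here 4 of 5 D1 libraries lay above all D2 libraries, and the log2 difference was 0.71 (SE 0.143, edgeR adjusted p 0.000772).

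The 2 highest of those, D1 Susceptible replicates 1 and 5, are the libraries with the large share of Gm42418. Without them the Susceptible difference of Shank1 was 0.39 (edgeR adjusted p 0.0492). Over the mean of the stress groups the log2 difference was 0.70 (SE 0.0826, edgeR adjusted p 7.01e-08), with 12 of 15 D1 libraries above all 15 D2 libraries. It ranged from 0.67 to 0.75 when each library was left out in turn. None of the 3 tests of whether the class difference changed with stress was called for Shank1 (log2 0.18, SE 0.201 for Susceptible against Control, 0.35, SE 0.201 for Resilient against Control, −0.17, SE 0.201 for Susceptible against Resilient).

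Markers of other cells also differed between the classes. All 5 cortical excitatory neuron markers were detected, and their summed level was 503 to 967 CPM in D1 and 169 to 565 CPM in D2 libraries. The 6 interneuron markers summed to 294 to 478 CPM in D1 and 67.6 to 281 CPM in D2, the 6 endothelial markers to 11.6 to 35.1 CPM in D1 and 53.3 to 318 CPM in D2, and none of these genes was at 0 in a whole group. Their part in the class difference of Shank1 was not tested. D2 Resilient replicate 5, the D2 library with the most D1 marker signal, stood at 67.4 CPM of Shank1, within the range of the other D2 libraries. Shank1 shares 339 exonic bases with 1700008O03Rik on the opposite strand, and without a known strand setting reads there cannot be assigned to either gene with certainty. That gene held 4313 counts over all libraries together, and Shank1 held at least 1352 in each single library. Neither figure tells how many reads lay in the shared bases.

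Shank2 (ENSMUSG00000037541, chr7:144001928-144424494, + strand) is a Shank whose human gene is linked to autism. Its Susceptible libraries stood at 71.6, 37.1, 34.9, 36.1 and 62.4 CPM in D1 and at 35.1, 32.7, 31.0, 39.9 and 37.7 CPM in D2. The difference of 0.45 in log2 (SE 0.145, edgeR adjusted p 0.0238) came from D1 replicates 1 and 5, while the other 3 D1 libraries lay among the D2 libraries. Without these 2 it was 0.024 (edgeR adjusted p 0.909), without replicate 1 alone 0.27 (0.137), without replicate 5 alone 0.35 (0.0827), and without D2 Susceptible replicates 1 and 2 it was 0.43 (0.105). In Control and Resilient libraries the differences were 0.11 (SE 0.144, edgeR adjusted p 0.791) and 0.08 (SE 0.144, edgeR adjusted p 0.944). Averaged over stress groups the difference was 0.21 (SE 0.0833, edgeR adjusted p 0.0555), and it passed the threshold in 17 of 30 fits that each left out 1 library.

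Shank3 (ENSMUSG00000022623, chr15:89499623-89560261, + strand), the Shank best known in striatal neurons, had no class difference called by edgeR. Its log2 values were −0.23 (SE 0.254), −0.06 (SE 0.254) and 0.31 (SE 0.255) in Control, Resilient and Susceptible, with edgeR adjusted p of 0.718, 0.986 and 0.397. The 95% interval of the mean difference, 0.01, ran from −0.28 to 0.30, each such interval being a normal interval from the SE. Voom with quality weights called Shank3 lower in D1 in Control (−0.43, adjusted p 0.014) and over the mean (−0.25, adjusted p 0.0182), where it called 28.5% and 39.8% of all genes. In D2 Control libraries Shank3 stood at 130.2, 129, 121, 64.4 and 72.4 CPM, and in D2 Susceptible libraries at 34.6, 53.8, 145, 89.4 and 131 CPM. The D2 Control libraries were 3 high and 2 low ones, the D2 Susceptible libraries were spread over a wider range, and the 5 D2 Resilient libraries stayed between 94.1 and 105 CPM.

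Homer2 (ENSMUSG00000025813, chr7:81600481-81707527, − strand), a long-form Homer, was higher in D1 over the mean of the stress groups, with a difference of 0.45 in log2 (SE 0.158, edgeR adjusted p 0.0305). In Resilient libraries D1 stood at 18.2, 21.1, 22.2, 20.7 and 23.7 CPM and D2 at 16.1, 13.1, 12.05, 11.9 and 14.8 CPM. The groups did not overlap, as for 9.7% of all genes, and the difference of 0.64 in log2 (SE 0.274) had an edgeR adjusted p of 0.22. With only the Resilient groups in the fit it was 0.63 (edgeR adjusted p 0.000901), where 12.7% of all genes were called. Control values were 27.7, 20.7, 30.8, 21.9 and 22.5 CPM in D1 and 13.8, 15.0, 12.6, 18.8 and 23.1 CPM in D2, a difference of 0.57 (SE 0.273, edgeR adjusted p 0.238). With only the Control groups in the fit it was 0.57 (edgeR adjusted p 0.031), where 15.6% of all genes were called. In Susceptible libraries D1 stood at 21.7, 19.0, 20.5, 15.3 and 23.1 CPM, and D2 at 31.0, 31.4, 8.39, 11.3 and 7.93 CPM. D2 replicates 1 and 2 were thus above every D1 library, and the other 3 D2 libraries below every one. With these 2 left out, Homer2 was called in every stress group, with log2 differences of 0.58 in Control, 0.66 in Resilient and 1.13 in Susceptible (edgeR adjusted p 0.00456, 0.00161 and 2.89e-05). Without D1 Susceptible replicates 1 and 5 the mean difference was 0.41 (edgeR adjusted p 0.0804).

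Dlgap1 (ENSMUSG00000003279, chr17:69969073-70821413, + strand) showed a like arrangement. Resilient libraries stood at 345, 332, 396, 369.8 and 398 CPM in D1 and at 316, 259, 247, 231 and 239.9 CPM in D2. They did not overlap, as for 9.7% of all genes, and the difference was 0.51 in log2 (SE 0.221, edgeR adjusted p 0.229). With only the Resilient groups in the fit it was 0.50 (edgeR adjusted p 0.000898), where 12.7% of all genes were called. Control libraries stood at 290.1, 342, 529, 398 and 438 CPM in D1 and 232, 227, 227, 359 and 342 CPM in D2, a difference of 0.53 in log2 (SE 0.221, edgeR adjusted p 0.16). In Susceptible libraries the D1 values of 305, 339, 355, 285 and 301 CPM lay between D2 replicates 1 and 2, both at 579 CPM, and the other D2 libraries at 203, 286 and 227 CPM, save that 1 D1 library lay just under the highest of these. Without D2 Susceptible replicates 1 and 2, Dlgap1 was called in Control (0.54, edgeR adjusted p 0.00844) and in Resilient (0.53, edgeR adjusted p 0.0108) but not in Susceptible (0.43, edgeR adjusted p 0.0918). Over the mean of the stress groups the difference was 0.27 (SE 0.127, edgeR adjusted p 0.12), and without these 2 libraries it was called (0.50, edgeR adjusted p 3.86e-05). Voom with quality weights called Dlgap1 in Susceptible (0.48, adjusted p 0.0117), where the edgeR value was −0.24 (SE 0.22, edgeR adjusted p 0.452), and over the mean (0.60, adjusted p 1.53e-08).

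Homer1 (ENSMUSG00000007617, chr13:93299635-93405129, + strand) was lower in D1 than in D2 Susceptible libraries, with a difference of −0.58 in log2 (SE 0.209, edgeR adjusted p 0.0441). Its D2 Susceptible libraries stood at 652, 421, 219.6, 262 and 248 CPM and its D1 Susceptible libraries at 273, 278, 279.8, 194 and 186 CPM. The difference rested on D2 replicates 1 and 2, and without them it was 0.012 (edgeR adjusted p 0.978). It was no longer called in 6 of 10 fits that left out 1 Susceptible library, with values from −0.69 to −0.23. In Control and Resilient libraries the difference was 0.03 (SE 0.208) and −0.13 (SE 0.208), with edgeR adjusted p of 0.967 and 0.927.

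The MAGUK genes varied least. Over 30 libraries Dlg3 (ENSMUSG00000000881, chrX:100767722-100818410, + strand) ranged from 235 to 300.0 CPM, Dlg4 (ENSMUSG00000020886, chr11:70016942-70047522, + strand) from 641 to 888 CPM and Dlg2 (ENSMUSG00000052572, chr7:90476672-92449247, + strand) from 253 to 409 CPM. The highest library exceeded the lowest 1.28 times for Dlg3, 1.39 times for Dlg4 and 1.62 times for Dlg2, against 2.31 times for Shank2 and 4.18 times for Shank3. The mean class difference was 0.04 (95% interval −0.02 to 0.11) for Dlg3, −0.04 (−0.12 to 0.05) for Dlg4 and 0.11 (0.00 to 0.21) for Dlg2, on the log2 scale. Dlg2 was at 409 and 406 CPM in D1 Susceptible replicates 1 and 5, above the other 28 libraries, which reached 342 CPM.

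**Figure D2:**
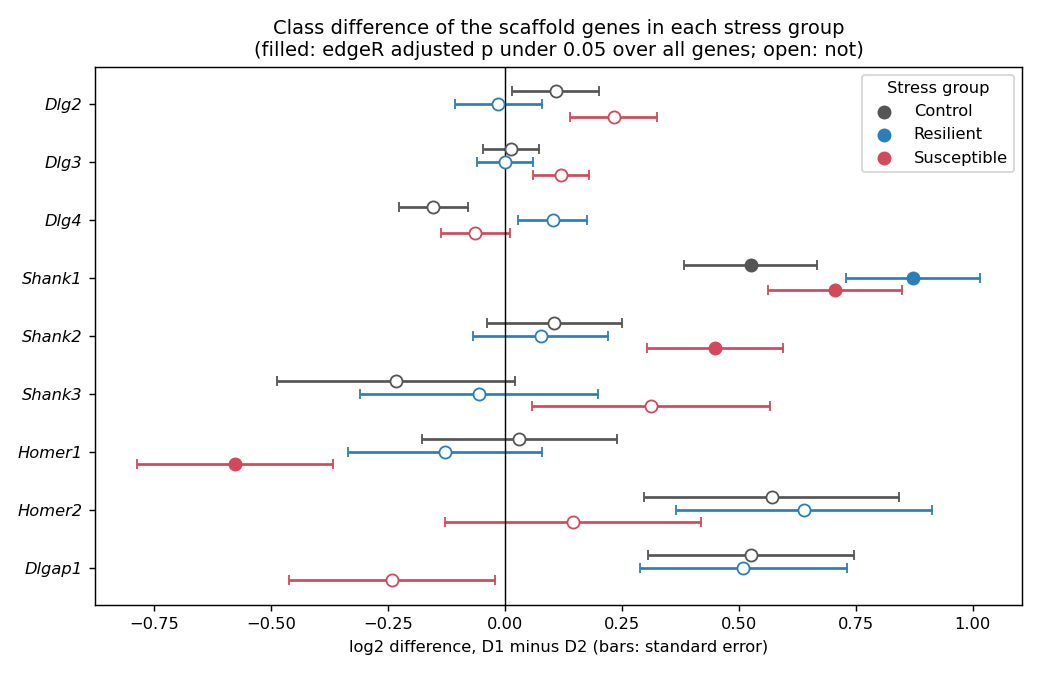
Class difference of each scaffold gene, D1 minus D2, on the log2 scale, in Control, Resilient and Susceptible libraries. Points are edgeR estimates with standard errors derived from the test's F statistic, filled where the adjusted p over all genes is under 0.05. Shank1 is filled in all 3 stress groups, at 0.53, 0.87 and 0.71.

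The stress comparisons asked whether any scaffold gene changed with stress within a class. By edgeR 0 of the 9 genes were called in D1 for Susceptible against Control, Resilient against Control or Susceptible against Resilient, where 0% of all genes were called in each. Unadjusted p under 0.05 was reached by 0 of the 9 in each, and by 2.4%, 2.6% and 3.49% of all genes. In D2, 0 of the 9 were called in each comparison, where 0.00516% of all genes were called for Susceptible against Control, 0% for Resilient against Control and 0.0516% for Susceptible against Resilient. An unadjusted p under 0.05 was reached by 1, 1 and 2 of the 9, and by 15.7%, 4.2% and 19.1% of all genes. The tests of whether the change differed between D1 and D2 called 0 of the 9 genes in each of 3 comparisons, where 0% of all genes were called, with 2, 1 and 1 at an unadjusted p under 0.05, beside 7.79%, 4.99% and 12.4% of all genes. At this number of libraries the counts do not show that the genes were unchanged.

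Homer1 had the largest differences of the 9 between D2 Susceptible and the other D2 groups, at 0.51 (95% interval 0.10 to 0.92, edgeR adjusted p 0.246) for Susceptible against Control and 0.62 (0.21 to 1.03, edgeR adjusted p 0.113) for Susceptible against Resilient. D2 Control libraries stood at 234, 233, 243, 278 and 281 CPM and D2 Resilient libraries at 306, 227, 205, 216 and 222 CPM. Only D2 Susceptible replicates 1 and 2, at 652 and 421 CPM, lay above these. Without them the differences were −0.07 and 0.05. DESeq2's Wald test called Homer1 for Susceptible against Resilient (0.64, adjusted p 0.0415), where it called 5.05% of all genes. In D1, Homer1 was at 191 to 328 CPM in Control, 192 to 251 CPM in Resilient and 186 to 279.8 CPM in Susceptible libraries, and the Resilient difference of −0.27 (SE 0.208, edgeR adjusted p 1) was called with voom and sample quality weights (−0.41, adjusted p 0.0314), which called 0.929% of all genes.

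Dlgap1 showed values of 0.43 (SE 0.22, edgeR adjusted p 0.339) and 0.54 (SE 0.221, edgeR adjusted p 0.181) in the same D2 comparisons, and −0.33 (SE 0.22, edgeR adjusted p 1) for Susceptible against Control in D1. Without D2 Susceptible replicates 1 and 2 the D2 values were −0.23 and −0.12. The D1 minus D2 change, Susceptible against Control, was −0.77 (SE 0.312, edgeR adjusted p 0.637) and became −0.10 without them. In D1, the Dlgap1 means were 399.7 ± 91.7 CPM in Control, 368 ± 29.7 CPM in Resilient and 317 ± 29.1 CPM in Susceptible (SD, n = 5), with overlapping libraries.

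Of the other 7 genes, Shank1 in D2 was 82.1 ± 13.1 CPM in Control, 65.5 ± 11.0 CPM in Resilient and 68.8 ± 11.8 CPM in Susceptible libraries. Its Resilient difference from Control was −0.32 (95% interval −0.60 to −0.05, unadjusted p 0.0298, edgeR adjusted p 1), with 4 of 5 Resilient libraries below all Control libraries. Dlg3 was the only one of the 9 whose stress groups did not overlap. Its D1 Susceptible libraries stood at 286, 288, 286, 292 and 300.0 CPM and its D1 Control libraries at 258, 273, 274, 282 and 271 CPM. The groups of 0.888% of all genes did not overlap in that comparison, and the difference of 0.10 in log2 had a 95% interval of −0.02 to 0.21 (edgeR adjusted p 1). For Dlg4 the D1 minus D2 change, Resilient against Control, was 0.26 (SE 0.105, unadjusted p 0.0206, edgeR adjusted p 0.929), with D1 at 739.9 ± 61.9 and 821 ± 35.0 CPM and D2 at 822 ± 87.3 and 765 ± 27.4 CPM in Control and Resilient. It was called with voom and sample quality weights (0.32, adjusted p 0.0356), which called 0.826% of all genes. Among the remaining genes, the value farthest from 0 within a class was 0.36 for Shank3 (95% interval −0.14 to 0.85) and 0.25 for Shank2 (−0.03 to 0.53), both for D1 Susceptible against Control. It was 0.40 for Homer2 (−0.13 to 0.94) for D2 Susceptible against Resilient and 0.18 for Dlg2 (−0.0040 to 0.36) for D1 Susceptible against Resilient. With each library left out in turn these ranged over 0.26 to 0.44 (Shank3), 0.08 to 0.35 (Shank2), 0.10 to 0.59 (Homer2) and 0.11 to 0.23 (Dlg2). The lowest value came without D2 Susceptible replicate 2 for Homer2, and without D1 Susceptible replicate 1 for the others. The D1 minus D2 changes of these genes went farther. For Shank3 the change was 0.54 (SE 0.36), Susceptible against Control. For Susceptible against Resilient it was 0.37 (SE 0.204) for Shank2, −0.49 (SE 0.387) for Homer2 and 0.25 (SE 0.131) for Dlg2.

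**Figure D3:**
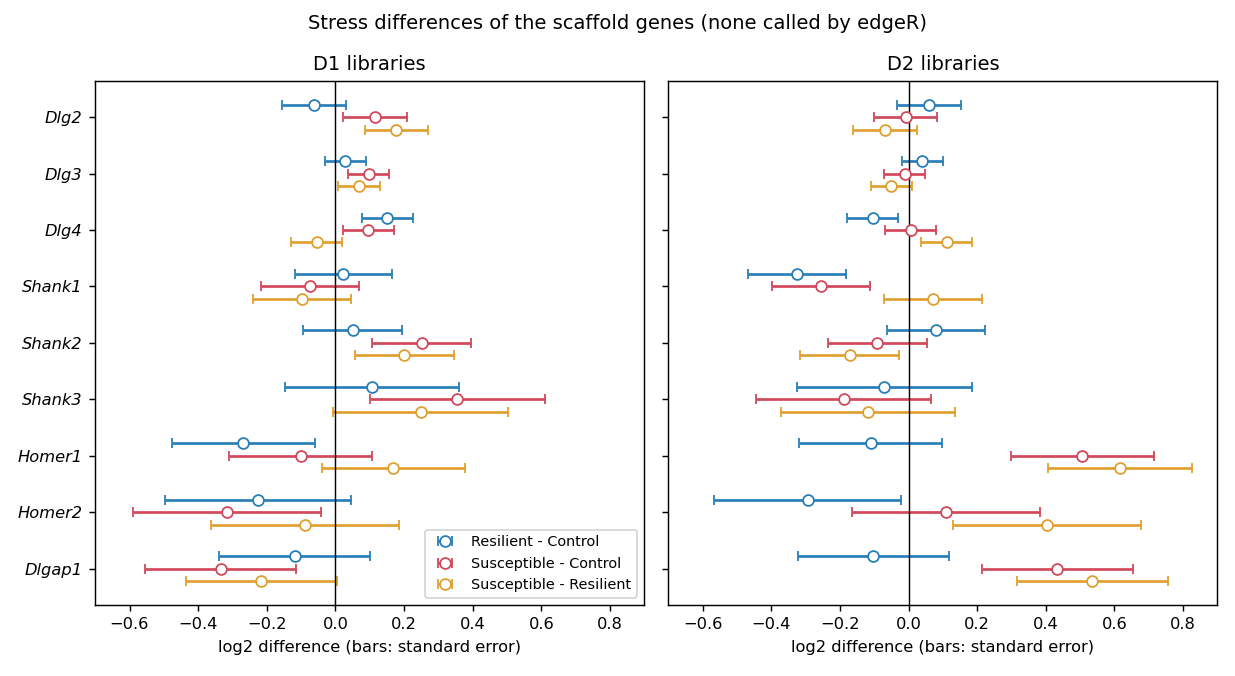
Stress differences of each scaffold gene on the log2 scale, D1 libraries at left and D2 libraries at right. Points are edgeR estimates with standard errors derived from the test's F statistic. No point passed the threshold, and the values farthest from 0 are those of Homer1 and Dlgap1 in D2 Susceptible, at 0.51 and 0.43 against Control and 0.62 and 0.54 against Resilient.

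Within the groups, several scaffold genes varied together. Each library's log2 CPM was taken as its deviation from the mean of its own group, and all 36 pairs of the 9 genes were compared over 30 libraries, with two-sided permutation within groups and Benjamini-Hochberg adjustment over the pairs. Shank3 and Dlgap1 varied in opposite directions, with r = −0.909 and rho = −0.879 (permutation p adjusted to 0.00036 for both). Leaving out the 2 libraries whose deviation of Shank3 lay farthest from its median gave r = −0.865. In every pair only the first-named gene set which 2 libraries were the farthest. Within D1 libraries Shank3 and Dlgap1 gave r = −0.712, and within D2 libraries −0.946. Homer1 and Dlgap1 varied in the same direction, with r = 0.855 and rho = 0.83 (permutation p adjusted to 0.00054 and 0.00036), 0.783 without the 2 farthest libraries, 0.728 within D1 and 0.908 within D2. Without the 4 libraries that stand apart (D1 Susceptible replicate 1, D2 Susceptible replicates 1 and 2, and D2 Resilient replicate 5) these pairs gave r = −0.865 and 0.756.

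In several other pairs the value of r differed widely between the classes. Among them were Dlg2 and Shank1 (0.746 within D1, −0.762 within D2) and Homer1 and Homer2 (0.0654 within D1, 0.899 within D2). A further 2 such pairs are given in more detail. Homer2 and Dlgap1 gave r = 0.874 and rho = 0.754 (permutation p adjusted to 0.0017 and 0.0038), 0.783 without the 2 farthest libraries, 0.314 within D1 and 0.966 within D2. Dlg2 and Shank2 gave r = 0.622 and rho = 0.534 (permutation p adjusted to 0.03 and 0.0387), 0.587 without the 2 farthest libraries, 0.936 within D1 and 0.0793 within D2. D1 Susceptible replicates 1 and 5, with the large share of Gm42418, were highest in both genes (Dlg2 409 and 406 CPM, Shank2 71.6 and 62.4 CPM). D1 Control replicate 2 was lowest of its group in both. The part of these libraries in the D1 value was not tested. Without the 4 libraries that stand apart, Homer2 and Dlgap1 gave r = 0.669 and Dlg2 and Shank2 gave 0.579. Whether the classes differ in any of these relations was not tested. Dlg4 followed Shank3 (r = 0.663, rho = 0.731, permutation p adjusted to 0.0017 and 0.0014) and ran against Dlgap1 (r = −0.674, rho = −0.769, permutation p adjusted to 0.0017 and 0.00048). Without the 2 farthest libraries these were 0.712 and −0.685, within D1 0.622 and −0.749, and within D2 0.703 and −0.667.

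**Figure D4:**
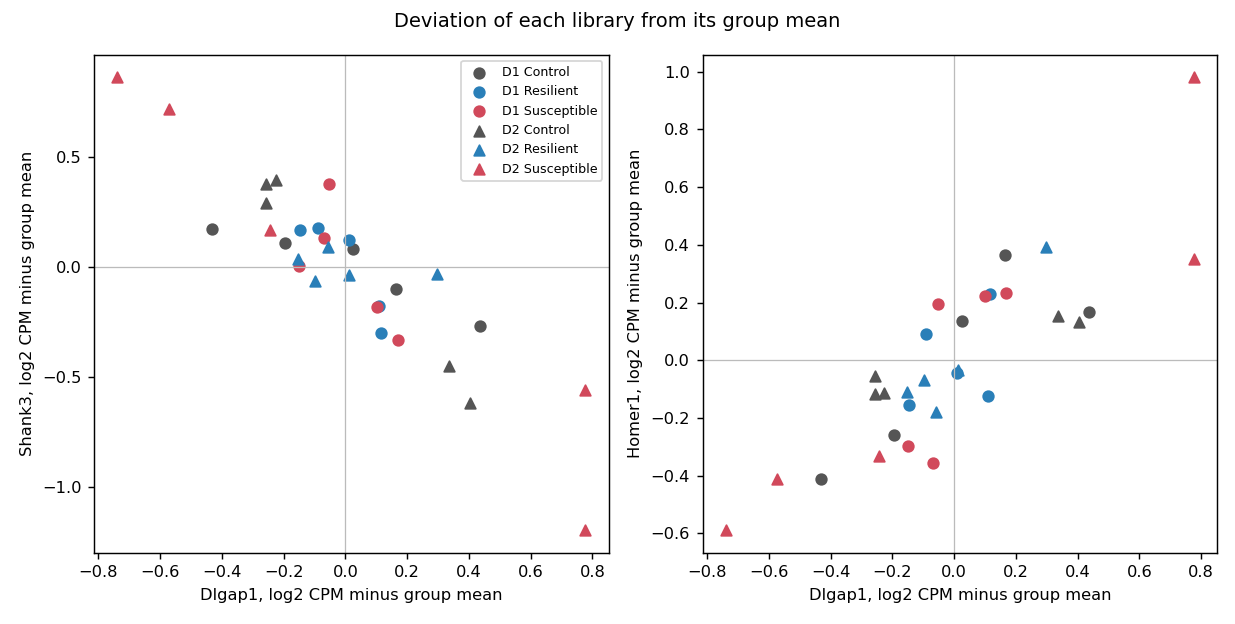
Deviation of each library from the mean of its group on the log2 CPM scale, with Dlgap1 on the horizontal axis and Shank3 (left) or Homer1 (right) on the vertical axis. Circles are D1 and triangles D2 libraries, and the points fall for Shank3 (r = −0.909) and rise for Homer1 (r = 0.855), with D2 Susceptible libraries at both ends.

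The 5 libraries with the least Shank3, a number chosen after the values were seen, were D2 Susceptible replicates 1 and 2 (579 and 579 CPM of Dlgap1, 34.6 and 53.8 CPM of Shank3), D2 Control replicates 4 and 5 (359 and 342, 64.4 and 72.4 CPM) and D1 Control replicate 3 (529 and 72.7 CPM). Next came D1 Resilient replicate 5 (398 and 76.4 CPM) and D1 Control replicate 5 (438 and 81.8 CPM). The summed level of the 6 oligodendrocyte markers was 1759 and 1311 CPM in the first pair, 1134 and 787 CPM in the second, and 379 CPM in D1 Control replicate 3, against 253 to 935 CPM in the other 25 libraries. In the next 2, D1 Resilient replicate 5 and D1 Control replicate 5, it was 372 and 462 CPM. All 6 markers were detected in every group. The part of these markers and of the low number of detected genes in the shared variation was not tested. In the sequence of the longest coding transcript, Shank3 had a GC content of 62.4% and Shank1 61.5%, Dlgap1 50.9%, Homer2 44.4% and Homer1 36.9%, against a median of 50.3% over 14943 genes. The part of GC content in the shared variation was not tested either.

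Among 24 other genes of the postsynaptic density, all of which passed the filter, D1 against D2 called 0 higher and 1 lower in Control (8.3% of all genes called in either direction), 0 and 0 in Resilient (6.65%), 3 higher and 4 lower in Susceptible (23.9%), and 4 higher and 2 lower over the mean of the stress groups (29.3%). No gene of this list was called by edgeR in any stress comparison within a class or in any D1 minus D2 change. These are taken in the order Susceptible against Control, Resilient against Control, Susceptible against Resilient. Within D1 there were 3, 0 and 3 of the 24 at an edgeR unadjusted p under 0.05, beside 2.4%, 2.6% and 3.49% of all genes. Within D2 there were 7, 1 and 3 (15.7%, 4.2% and 19.1%), and for the D1 minus D2 changes 1, 2 and 5 (7.79%, 4.99% and 12.4%). Baiap2 (IRSp53, an actin regulator that binds Shank proteins and PSD-95) was lower in D1 in Control, at 756 ± 56.2 against 1003 ± 168 CPM (log2 −0.41, edgeR adjusted p 0.029), in Susceptible (−0.62, edgeR adjusted p 0.00046) and over the mean (−0.39, edgeR adjusted p 4.91e-05). Ppp1r9a (neurabin, an actin-binding scaffold) was lower in D1 over the mean (−0.42, edgeR adjusted p 0.000174). Iqsec1, an exchange factor for ARF proteins, was higher in D1 over the mean, at 124 ± 17.3 against 93.8 ± 21.7 CPM (0.40, edgeR adjusted p 0.00347). In Susceptible libraries the named genes were Iqsec1 (0.72, edgeR adjusted p 0.00456) and Begain (0.32, edgeR adjusted p 0.0205), higher in D1, and Baiap2 and Ppp1r9a (−0.57, edgeR adjusted p 0.00401), lower in D1. There Iqsec1 stood at 136 ± 17.0 CPM in D1 against 82.5 ± 30.1 in D2, and Begain at 106 ± 7.89 against 84.7 ± 13.4. Baiap2 stood at 793 ± 71.9 against 1219 ± 309 CPM, and Ppp1r9a at 497 ± 69.3 against 739 ± 234. Whether these calls rest on D2 Susceptible replicates 1 and 2 was not tested.

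For each scaffold gene the gene with the most similar profile over the 30 libraries was taken from 8845 candidates, by the root mean square difference of log2 CPM after centring each gene on its mean. The nearest to Shank1 was Shisal1, at 0.183 against 0.426 for the deviation of Shank1 from its own mean. Rock2 was nearest to Homer1 (0.135 against 0.365), Mink1 to Shank3 (0.149 against 0.423), Pgm2l1 to Dlgap1 (0.113 against 0.397) and Zfp536 to Homer2 (0.233 against 0.509). Huwe1 was nearest to Shank2 (0.16 against 0.246), Ralgapb to Dlg2 (0.0876 against 0.149), Eif4h to Dlg4 (0.0726 against 0.108) and Hp1bp3 to Dlg3 (0.0635 against 0.0712), which leaves little of a profile to match in Dlg3.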

How the data were processed

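Ribosome-bound RNA of 30 libraries from mouse nucleus accumbens was analysed, made with SMART-Seq v4 from 10 ng of RNA each, as the labels' protocols say. The deposited values are raw read counts per gene that the authors did not normalize. HISAT2, HTSeq, GRCm38 and mm10 are named in the submitters' processing notes, and no source used here gives their versions, the annotation release or the strand setting. The deposited table of the series and the 30 files per library held identical counts. Reads not assigned to a gene made up 10.1% to 53.3% of a library and stayed out of library sizes and tests. Groups and replicate numbers came from sample titles.

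Symbols and coordinates are from GENCODE M21 on GRCm38, with symbols for 55154 of 55335 genes. Genes were filtered with filterByExpr (minimum count 10, minimum total 15), which left 19368, scaled by TMM and fitted in edgeR 4.0.16 (R 4.3.3) for the robust quasi-likelihood test, in 1 model of 6 groups without a replicate term, with Benjamini-Hochberg adjustment over all genes at 0.05. Each SE of the edgeR fit is the absolute log2 difference divided by the square root of the test's F statistic. The 95% intervals take 1.96 SE on either side, so they can differ slightly from the p-value of the test. Within-group relations took log2 CPM at a prior count of 2, with 100000 permutations. A count of 0 would have allowed up to 3 counts. Counting error is small at 214 counts or more, but the number of counts does not measure other differences in library quality.

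Alternatives were DESeq2 1.42.0, its size factors within edgeR, no filter, only the groups compared, a replicate block, voom with quality weights (limma 3.58.1), library sizes without Gm42418 and mitochondrial genes, and libraries left out. Leaving out D1 Susceptible replicates 1 and 5 was chosen after seeing the data. The scaffold genes and all lists were chosen with earlier results of these data known. Named genes are the 9 scaffold genes, the nearest profile of each (symbols other than Gm or Rik names, mean of at least 10 CPM), and in each comparison up to 2 of the 24 other postsynaptic density genes per direction with the smallest adjusted p. A gene that this rule names is not reported here. Lists of D1 neuron, D2 neuron, interneuron, cortical excitatory neuron, astrocyte, oligodendrocyte, microglia and endothelial markers were summed per library. Astrocyte sums ran from 32.1 to 193 CPM, microglia sums from 22.6 to 71.1 CPM and D2 neuron sums from 1109 to 12698 CPM. Male and human data were not analysed here.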

Additional observations from a re-analysis of the deposited data

Results flagged for a closer look

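In each of the 54 combinations of a scaffold gene and a group, the highest and lowest of the 5 libraries were compared with the others, and 6 values, in 4 libraries, lay far from the other 4 of their group, where chance alone marks about 1 in 20 such groups. In D1 Control replicate 2, Dlg2 was lowest at 284 CPM against 328 to 342 CPM in the others, and Shank2 was lowest at 32.9 CPM against 41.3 to 43.4 CPM. Dlg3 was lowest at 256 CPM in D1 Resilient replicate 5 (others 280.0 to 286 CPM) and at 252 CPM in D2 Control replicate 4 (others 271 to 277 CPM). In D2 Resilient replicate 1, Shank1 was lowest at 46.7 CPM (others 67.4 to 75.0 CPM) and Homer1 was highest at 306 CPM (others 205 to 227 CPM).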

How the results depend on the processing

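Of 2790 single-gene values recomputed under the alternatives, 2707 stayed on the same side of the threshold, 19 lost a call, 60 gained one and 4 changed sign with a call in 1 of the fits. Of the 2707, 147 changed sign without being called in either fit. Shank1 was called in each of its 4 class comparisons under every alternative run. The 4 sign changes were, for Homer1 in Susceptible D1 against D2, 0.062 with voom and 0.012 without D2 Susceptible replicates 1 and 2, for Dlgap1 in the same comparison 0.48 with voom, and for Shank3 over the mean of the stress groups −0.25 with voom. The last 2 were called by voom. The number of scaffold genes called, D1 against D2, was 1 in Control and became 2 with only the groups compared (15.6% of all genes called), 5 with voom (28.5%), and 3 without D2 Susceptible replicates 1 and 2 (15.3%) or without the 4 libraries that stand apart (16.2%). In Resilient it was 1 and became 3 under each of these settings, which called 12.7%, 17.6%, 11.3% and 12.5% of all genes. In Susceptible it was 3 and became 1 with only the groups compared (5.48%) or without D1 Susceptible replicates 1 and 5 (15.1%). Over the mean it was 2 and became 5 with voom (39.8%) and 1 without D1 Susceptible replicates 1 and 5 (25.9%). Counts that changed by no more than 1.5-fold are left out of this list, though the genes called could differ. Without D2 Susceptible replicates 1 and 2, Homer2 gained a call in Susceptible while Shank2 and Homer1 lost theirs, and Dlgap1 gained one over the mean. Of the stress comparisons, D2 Susceptible against Resilient went from 0 to 1 with DESeq2 (5.05%), and D1 Resilient against Control and the D1 minus D2 change, Resilient against Control, each went from 0 to 1 with voom (0.929% and 0.826%). Leaving out each library in turn gave 1 to 1 genes in Control, 1 to 1 in Resilient, 1 to 5 in Susceptible and 2 to 4 over the mean, and 0 to 2 in D2 Susceptible against Resilient, with 0 to 0 in the other stress comparisons. The share of all genes called in these fits is not given here, so the counts are not a result about the scaffold genes in particular. The cause of these shifts was not tested.

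Groups share replicate numbers, but nothing in the labels pairs them. Libraries with the same number had a mean residual correlation of −0.0107 (−0.295 to 0.248 over 75 pairs), against 0.00398 over 300 pairs with different numbers. With the replicate block 1, 1, 2 and 2 scaffold genes were called in Control, Resilient, Susceptible and over the mean, beside 7.73%, 6.35%, 21.5% and 27.5% of all genes, and 0 in all 9 stress comparisons. The call lost was Homer1 in Susceptible (−0.53, edgeR adjusted p 0.0701).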
